A study of Homo sapiens with 30 samples.

Results

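Subclone 2 is a descendant population of the human breast cancer cell line MDA-MB-231, a line of mesenchymal shape that lacks the oestrogen and progesterone receptors. Its cells had been marked with LeGO vector barcodes, grown in NOD-SCID-IL2Rγc-/- (NSG) mice, which have no mature T, B or NK cells, and sorted from lung and liver metastases before bulk RNA sequencing. The samples described here are the 3 lung and the 3 liver metastasis samples of subclone 2 in mice 1, 2 and 3 of the first experiment, 6 of the 30 libraries in the series, and each lung sample was compared with the liver sample of the same mouse. The primary tumours of the same mice, subclone 13 from the same 3 mice, and a retransplantation experiment with subclone 2 in mice 4, 5 and 6 serve as reference. Everything shown comes from 1 barcoded subclone of 1 cell line in an immunodeficient host. The labels do not say how many metastases went into a sample.

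Lung and liver are both common sites of breast cancer spread, and they offer tumour cells very different surroundings. The lung is rich in oxygen and in capillary and alveolar basement membrane. The liver is a metabolic organ whose sinusoids have little basement membrane. Tumour cells in either place can change which cytokines, matrix proteins, mucins and cell cycle genes they transcribe, and those groups are taken in turn here.

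Counts per sample, in units of 1000000, ranged from 11.8 to 50.9 in lung and from 17.5 to 72.0 in liver. The lung samples of mice 1 and 3 and the liver sample of mouse 1 were the shallowest. Lung and liver of a mouse were sequenced in the same run (runs 1, 2 and 3 for mice 1, 2 and 3), so mouse and run cannot be told apart, while the organ contrast lies within both. All 8 genes listed as markers of MDA-MB-231, such as VIM, CD44, AXL and ZEB1, were expressed in all 6 samples. ESR1 and PGR stayed at or below 1.44 CPM, where CPM is the count of a gene per 1000000 counts of the library. Other genes listed as low or absent in the line were well expressed. KRT8 was at 723 to 1313 CPM, ERBB2 at 77.8 to 97.6 CPM and EPCAM at 18.2 to 61.6 CPM. CDH1, GATA3 and FOXA1 lay below EPCAM in each sample. Of the listed markers of other cells, SERPINA1 of hepatocytes was at 27.8 to 91.9 CPM and AGER of lung epithelium at 3.04 to 6.90 CPM. CD14 of leukocytes was at 1.81 to 15.5 CPM, and these genes did not pass between the organs. Among 7 tested markers of mesenchymal cells such as fibroblasts, COL1A1 passed as higher in lung (edgeR adjusted p = 0.0401). COL1A2, of the same group, passed as higher in liver (edgeR adjusted p = 0.00274). PDGFRB, also of that group, was at 4.91 to 17.1 CPM and did not pass. The human hepatocyte genes FGA, FGB and HP, the lung epithelial gene SFTPC and the erythroid gene HBA1 had 0 counts in all 6 samples, ALB reached at most 0.756 CPM, and PTPRC, the pan-leukocyte marker, stayed below 1 CPM. PECAM1, an endothelial adhesion gene, was at 10.6 to 15.8 CPM in lung and 23.9 to 33.9 CPM in liver (edgeR adjusted p = 0.053), while the endothelial genes CDH5 and CLDN5 reached at most 1.19 and 0.0695 CPM. The host cells were of the mouse, and reads were counted on the human genome. Human marker genes therefore do not measure how many host cells a sample held. The part of these markers in the results was not tested.

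With mouse as a term in the model, 514 of 17418 genes tested (2.95%) differed between lung and liver at a Benjamini-Hochberg adjusted p under 0.05 in the quasi-likelihood F test of edgeR. Of these, 284 (1.63%) were higher in lung, with a median change of 1.41 on the log2 scale, and 230 (1.32%) were higher in liver, with a median change of 0.91. Of the genes higher in lung 226 differed by at least 2-fold, and of those higher in liver 83. All 3 mice moved in the same direction for 279 of the 284 and 228 of the 230, against 6724 of all 17418 genes tested. The called genes were chosen by a test within these same mice, so this agreement is no separate evidence. The 3 lung samples lay wholly above or below the 3 liver samples for 198 and 158 of them. Among all genes tested, 1032 (5.92%) had every lung sample above every liver sample and 1063 (6.10%) the reverse. DESeq2 with the mouse term called all 514 among its 1364 genes (7.83%), of which 821 were higher in lung (4.71%) and 543 in liver (3.12%).

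These calls rest on the comparison within mice. Without mouse in the model 4 genes passed (0.0230% of those tested): SLC43A2 was higher in lung (0.00574%), and COL1A2, EDNRA and CLMP were higher in liver (0.0172%). The direction was the same for all 514 genes without the term, and also for 16709 of all 17418 genes tested, so it says little about the calls. Of the 514, 444 had an unadjusted p under 0.05 without the term, 238 higher in lung and 206 higher in liver, against 1619 of all genes tested. The 514 were chosen from the same samples, so neither count is separate evidence for them. Leaving out mouse 2 gave 27 calls, leaving out mouse 3 gave 83 and leaving out mouse 1 gave 542. Of these, 25, 67 and 321 were among the 514, so each of these fits lost many of the calls. The loss was largest without mouse 2, whose lung and liver libraries were the deepest of the lung and of the liver samples. Without the lung sample of mouse 2 alone 59 genes passed, and without the liver sample of mouse 3 alone 190 passed, of which 59 and 162 were among the 514.

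**Figure D1:**
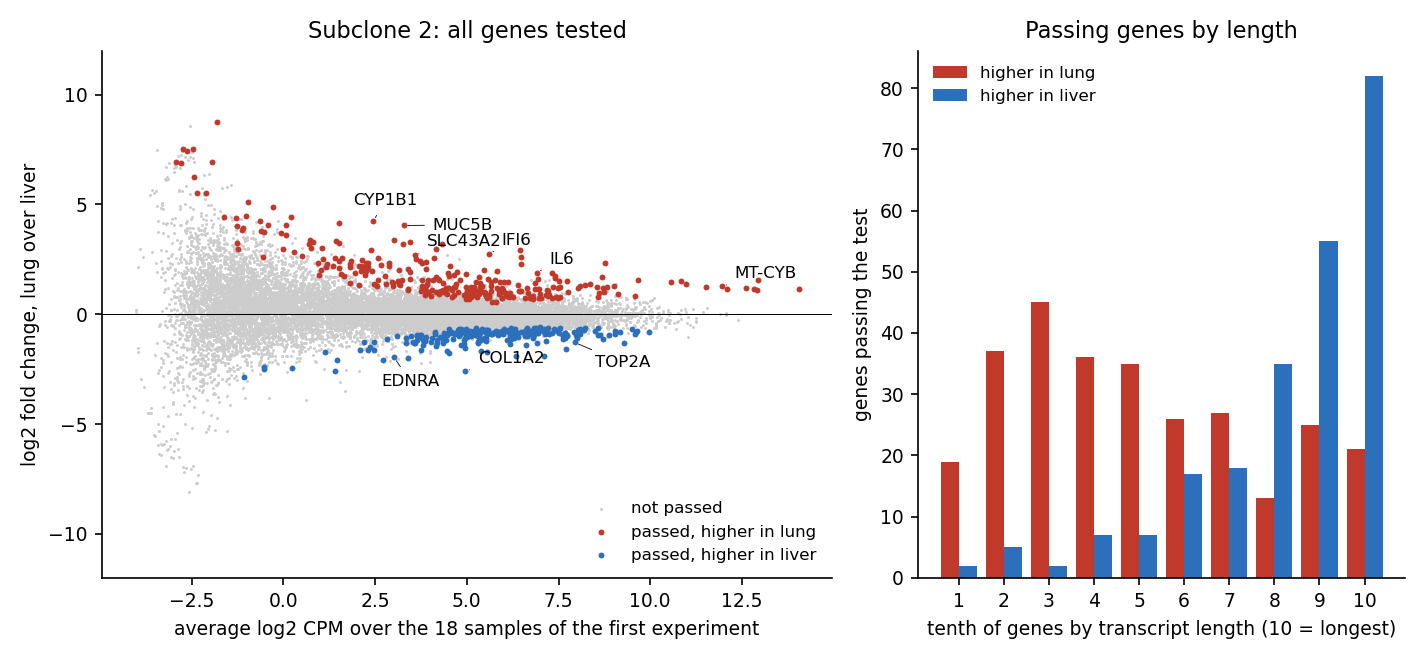
Left: log2 fold change of lung over liver against average log2 CPM over the 18 samples of the first experiment, 1 point per gene tested, coloured by the 284 genes higher in lung and the 230 higher in liver. Right: passing genes counted in 10 equal bins of all tested genes ordered by transcript length, where the bin of the longest holds 82 of the genes higher in liver and 21 of those higher in lung.

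The sets differed in transcript length and base composition. The longest annotated transcript had a median length of 5930.5 bases among genes higher in liver, 2684.5 bases among genes higher in lung and 3108 bases among all genes tested. Median GC content was 45.0%, 54.1% and 48.3% in the same order. Of 10 equal bins by length, the bin of the longest held 82 of the 230 genes higher in liver and the bin of the shortest held 2. Across 17413 genes with a length, the rank correlation (Spearman) between length and the change was -0.13 in mouse 1, -0.27 in mouse 2 and -0.08 in mouse 3, given as a description since all genes share the same 6 libraries. With an offset for length and GC content in each sample, an analysis added after seeing this pattern, 739 genes passed (4.24%), 334 higher in lung (1.92%) and 405 higher in liver (2.33%), so the balance of directions turned. Of the 514 calls, 409 were shared with that fit. The part of length and composition in single results was not tested beyond this offset.

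Among the genes with the largest changes that moved the same way in all 3 mice and reached a mean of 5 CPM in the higher organ, the 12 higher in lung changed by 3.18 to 4.41 on the log2 scale. They included 3 mucins, 2 keratins and genes of thyroid hormone, retinol and nicotinamide handling. DIO2, the deiodinase that makes active thyroid hormone, was at 1.21, 8.71 and 9.42 CPM in lung and 0.0641, 0.137 and 0.813 CPM in liver of mice 1, 2 and 3, a log2 fold change of 4.41 (SE 0.62, adjusted p = 0.00139). CYP1B1 (chr2:38066973-38109902), a cytochrome P450 induced through the aryl hydrocarbon receptor, was at 18.9, 33.8 and 43.3 CPM in lung and 0.641, 3.204 and 0.363 CPM in liver. Every lung value of both genes lay above every liver value. CYP1B1 changed by 4.24 (SE 0.68, adjusted p = 0.00329), and the primary tumours were higher than either organ at 58.02, 70.9 and 212 CPM. It was the single member of 9 tested aryl hydrocarbon receptor targets that passed; AHR itself was at 162 ± 34.8 CPM in lung and 173 ± 80.9 CPM in liver (mean ± SD, n = 3), with an adjusted p of 0.944.

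NNMT, which methylates nicotinamide, was at 8.63, 12.3 and 42.7 CPM in lung and 0, 0.636 and 2.65 CPM in liver (log2 fold change 4.18, SE 0.58, adjusted p = 0.00117). STRA6, the cell surface receptor for retinol uptake, was at 12.7, 48.97 and 92.9 CPM in lung and 0.449, 8.93 and 6.09 CPM in liver (log2 fold change 3.29, SE 0.50, adjusted p = 0.00274). In these genes mouse 1 was the lowest within each organ and still rose from liver to lung. LSR, a lipoprotein receptor and protein of tricellular junctions, was more even, at 26.8, 34.99 and 28.00 CPM against 2.89, 1.895 and 4.898 CPM (log2 fold change 3.18, SE 0.53, adjusted p = 0.00442). KRT17 and KRT16, keratins of stressed epithelia, changed by 3.38 and 3.23 (adjusted p = 0.00274 and 0.00376), with liver of mouse 3 above lung of mouse 1 in each. Keratin genes have near-identical copies, so the values of these 2 are uncertain. TNFRSF1B, the second receptor for TNF, and CACNG4, an auxiliary calcium channel subunit, changed by 3.33 and 3.37.

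SLC43A2, a transporter of large neutral amino acids, was the only gene higher in lung that passed without mouse in the model. It was at 21.8, 29.01 and 47.00 CPM in lung and 2.501, 5.16 and 7.15 CPM in liver, a log2 fold change of 2.71 (SE 0.32, adjusted p = 0.000746), with an adjusted p of 0.0207 without the mouse term. It passed in all 9 fits that left out a sample or a mouse. None of the other 16 tested amino acid transporters passed, and with the length and GC offset 1 of the list was higher in lung and 1 higher in liver.

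The 12 genes named by the same rule in liver changed by 1.63 to 2.58. COL1A2 (chr7:94394561-94431232), the alpha-2 chain of type I collagen, led them at 14.3, 11.9 and 16.1 CPM in lung and 55.99, 159 and 35.97 CPM in liver, a change of -2.58 (SE 0.40, adjusted p = 0.00274). All lung values lay below all liver values, and the gene passed in all 9 leave-out fits. EDNRA, the endothelin A receptor, was at 2.82, 4.61 and 5.32 CPM in lung and 15.01, 25.2 and 9.99 CPM in liver (log2 fold change -1.96, SE 0.30, adjusted p = 0.00274). CLMP, an adhesion molecule of the immunoglobulin family, was at 36.4, 18.6 and 19.8 CPM and 66.8, 65.01 and 94.2 CPM (log2 fold change -1.65, SE 0.21, adjusted p = 0.00113). Both groups of 3 were again separate. PDE2A, which breaks down cyclic nucleotides, and AKR1C3, a steroid and prostaglandin reductase, changed by -1.98 and -1.75, and in both the lung sample of mouse 1 lay above the liver sample of mouse 2. MYLK, the myosin light chain kinase, was at 84.9, 414 and 90.8 CPM in liver, where mouse 2 stood far above the others, and at 63.6, 41.6 and 35.1 CPM in lung. Its change of -1.92 (SE 0.42, adjusted p = 0.02) did not pass without the lung sample of mouse 2 or mouse 3, without the liver sample of mouse 2, or without mouse 2 or mouse 3. MPP7, LINC01605, APCDD1L, SRPX, KAZN and C18orf54 complete the list, with changes from -2.08 to -1.63.

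**Figure D2:**
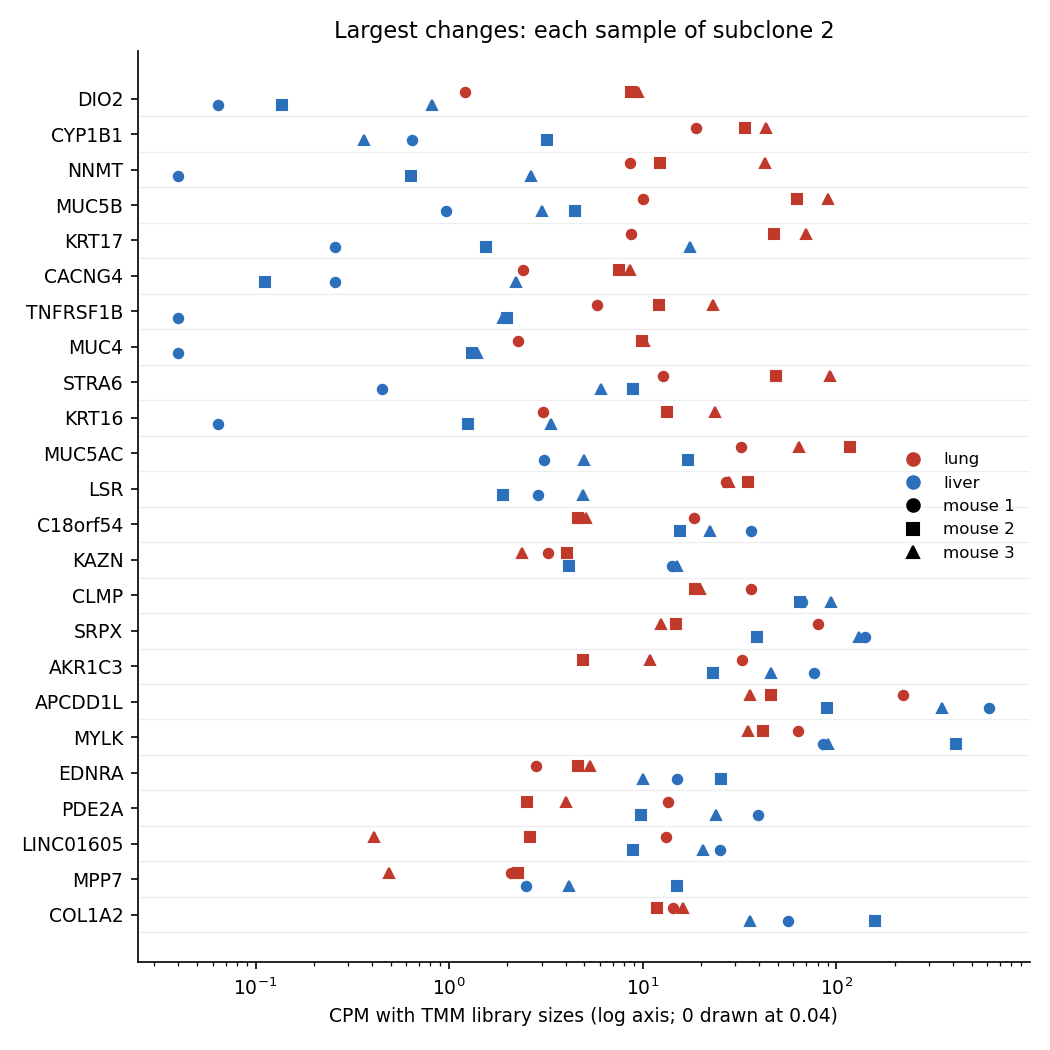
CPM (log axis, TMM library sizes) of each of the 24 named genes in each subclone 2 sample, lung in red and liver in blue, with a symbol per mouse and 0 drawn at 0.04. The gap between colours is wide for DIO2 and CYP1B1, and colours touch or interleave for KAZN, AKR1C3 and SRPX.

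Without mouse in the model, the adjusted p of the 12 genes higher in lung ran from 0.0581 to 0.447, and that of the 12 higher in liver from 0.0402 to 0.473. In all 9 leave-out fits 3 of the first 12 (CYP1B1, MUC5B and MUC5AC) and 1 of the second 12 (COL1A2) passed. Without mouse 2 DIO2 had an adjusted p of 0.0887, NNMT 0.0618, KRT17 0.109, LSR 0.111 and EDNRA 0.0944, and without mouse 3 STRA6 had 0.0899. Others were weaker. MPP7 and KAZN passed in 2 of the 9 leave-out fits, LINC01605 and APCDD1L in 3 and CACNG4 in 4. The highest edgeR adjusted p over those fits was 0.470 for MPP7, 0.355 for CACNG4 and 0.316 for KAZN. With the offset for length and GC content 12 and 11 of them passed, and MPP7 did not (adjusted p = 0.0694).

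Gene groups were read from 31 lists. For scale, 2.95% of all genes tested passed, 1.63% higher in lung and 1.32% higher in liver. Mucins form the gel or the glycocalyx on epithelia, and trefoil factors are secreted with them. Of 10 tested members 4 were higher in lung, none was higher in liver, and all 10 had a positive change, with a median of 2.00 against 0.02 for all genes. MUC5AC (chr11:1157953-1201138), a gel-forming mucin of airway and stomach, was at 32.1, 118 and 64.03 CPM in lung and 3.08, 17.05 and 4.95 CPM in liver (log2 fold change 3.19, SE 0.42, adjusted p = 0.00113). MUC5B (chr11:1223066-1262172), the other main airway gel mucin and its neighbour on the chromosome, was at 10.1, 62.5 and 90.2 CPM and 0.962, 4.48 and 3.03 CPM (log2 fold change 4.05, SE 0.56, adjusted p = 0.00117). Each mouse was higher in lung for both, by 3.36, 2.79 and 3.68 for MUC5AC and 3.31, 3.79 and 4.87 for MUC5B on the log2 scale in mice 1, 2 and 3. The membrane mucins MUC4 and MUC1 changed by 3.30 (SE 0.66, adjusted p = 0.0113) and 1.49 (SE 0.39, adjusted p = 0.0431). TFF1 and TFF3, trefoil peptides, did not pass at 1.62 and 1.61 (adjusted p = 0.149 and 0.0568). Without the mouse term the 4 called mucins had adjusted p values of 0.0827 to 0.362. Between 2 and 4 members passed across the leave-out fits (2 without mouse 2 or without its lung sample), and 3 with the length and GC offset, under which MUC1 did not.

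The 13 protein-coding genes of the mitochondrial genome encode subunits of the respiratory chain and of ATP synthase and are transcribed from the organelle's own promoters. Of them 12 were higher in lung, by 0.83 to 1.69, and MT-ATP8, which overlaps MT-ATP6, did not pass (0.78, adjusted p = 0.181). MT-CYB, which encodes cytochrome b, was at 6278, 6145 and 6514 CPM in lung and 3181, 2584 and 1966 CPM in liver (log2 fold change 1.28, SE 0.23, adjusted p = 0.00572). MT-ND1, a subunit of complex I, was at 4043, 3029 and 2912 CPM and 1964, 1059 and 870.2 CPM (log2 fold change 1.39, SE 0.22, adjusted p = 0.00274). In both genes every lung sample lay above every liver sample.

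Together the 13 genes took 8.53%, 8.90% and 8.43% of counts in lung and 4.85%, 3.63% and 3.10% in liver, or 8.62% ± 0.246 against 3.86% ± 0.900 (mean ± SD, n = 3), while the primary tumours held 3.30% ± 0.580. The groups were separate, but no exact test can pass 0.05 with 3 mice. The two-sided exact permutation test within mice gave p = 0.25, the smallest that 8 sign flips allow, and without pairing p = 0.1, the smallest that 20 splits allow. None of 24 tested nuclear genes for respiratory chain subunits passed, and their median was 0.06. The mitochondrial transcripts are short (median 784 bases), and with the length and GC offset 10 of the 13 passed. The count fell to 5 without the lung sample of mouse 2, 4 without the liver sample of mouse 3, 1 without mouse 3 and 0 without mouse 2, and adjusted p values without the mouse term were 0.0889 to 0.785. In the retransplantation samples the share was 5.17%, 9.66% and 9.90% in lung and 5.62%, 7.01% and 5.76% in liver of mice 4, 5 and 6. The mitochondrial share is also a measure of the state of cells and libraries, and its part in the other differences was not tested.

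NF-kB is the transcription factor through which TNF and other inflammatory signals switch on cytokines, its own subunits and its inhibitors. Among 27 tested NF-kB and TNF response genes 6 were higher in lung and none was higher in liver, and 25 had a positive change (median 1.08). The called genes were IL6, TNFAIP2, IER3, BCL3, RELB and NFKB2. IL6 (chr7:22725884-22732002), the pleiotropic inflammatory cytokine, was at 95.1, 385 and 342 CPM in lung and 24.4, 85.5 and 114 CPM in liver. Mouse 1 was low in both organs, so that the groups overlapped, yet lung exceeded liver in each mouse by 1.96, 2.17 and 1.59 and the fitted change was 1.90 (SE 0.31, adjusted p = 0.00411). TNFAIP2, a TNF-induced gene, was at 137, 489.6 and 419 CPM against 59.6, 90.2 and 111 CPM, with all lung samples above all liver samples (log2 fold change 1.88, SE 0.44, adjusted p = 0.0261). IER3, an immediate response gene, changed by 1.55 (SE 0.30, adjusted p = 0.00891). NFKBIA, the inhibitor that NF-kB induces to shut itself off, was at 583, 1242 and 1042 CPM and 264, 193 and 623 CPM and did not pass (1.40, adjusted p = 0.134). Of 16 tested TNF receptors and ligands TNFRSF1B passed, at 5.805, 12.1 and 23.01 CPM in lung and 0, 1.98 and 1.904 CPM in liver.

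The 250 bases before the RefSeq transcription start (GRCh38.p14) of the 2 most changed NF-kB genes with an entry in the promoter table are given because NF-kB acts by binding short DNA motifs. They run 5′ to 3′ on the gene's strand. Capitals mark matches to the kappa-B consensus, GCGTG (the aryl hydrocarbon receptor core) or TGANTCA (AP-1), each searched on both strands with no overlap between matches found. IL6 lies at chr7:22726950-22727199 (plus strand) and TNFAIP2 at chr14:103123211-103123460 (plus strand).
IL6: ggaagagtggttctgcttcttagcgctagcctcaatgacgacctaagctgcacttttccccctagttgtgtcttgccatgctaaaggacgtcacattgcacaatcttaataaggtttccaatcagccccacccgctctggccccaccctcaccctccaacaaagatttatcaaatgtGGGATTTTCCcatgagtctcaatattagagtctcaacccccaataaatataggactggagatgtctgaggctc
TNFAIP2: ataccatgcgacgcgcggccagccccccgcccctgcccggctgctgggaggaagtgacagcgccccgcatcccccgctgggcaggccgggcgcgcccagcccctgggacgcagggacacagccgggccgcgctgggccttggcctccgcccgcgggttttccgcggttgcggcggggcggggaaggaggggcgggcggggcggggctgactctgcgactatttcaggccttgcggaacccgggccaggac
The IL6 window held 1 kappa-B match, GGGATTTTCC at positions -73 to -64 from the start, and the TNFAIP2 window held no match to the 3 motifs. Windows of this length held the kappa-B consensus in 9.96% of 35116 promoters, GCGTG in 32.2% and TGANTCA in 6.57%. A match is only a run of letters, and occupancy was not measured.

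Of 21 tested cytokines, chemokines and growth factors, 4 were higher in lung and none was higher in liver, with a median of 1.17. Beside IL6 these were IL11, a cytokine of the IL-6 family (12.6, 30.1 and 29.3 CPM in lung and 6.93, 2.11 and 7.598 CPM in liver, log2 fold change 2.08, SE 0.47, adjusted p = 0.0223), PDGFA, a growth factor for mesenchymal cells (log2 fold change 1.37, SE 0.31, adjusted p = 0.0223), and AREG, a ligand of the EGF receptor (log2 fold change 1.19, SE 0.22, adjusted p = 0.00757). AREG was at 282, 521 and 414 CPM in lung and 128, 199.9 and 212 CPM in liver, a separation in all 3 mice. VEGFA and CSF1 had values of 0.24 and -0.17 and did not pass. In the IL-6 and STAT3 feedback list SOCS2 and CEBPB passed among 14 members (1.59 and 0.99), and SOCS3 did not (0.56, adjusted p = 0.132). CEBPB also missed the threshold with the length and GC offset (adjusted p = 0.126), as did BCL3 of the NF-kB genes (adjusted p = 0.107), while the counts of these lists under the offset were 7 for NF-kB and 5 for cytokines, all higher in lung, and 1 for IL-6 and STAT3 feedback. SOCS2 passed in 6 of 9 leave-out fits and CEBPB in 0. Of the NF-kB genes IL6 passed in 8, IER3 in 7, BCL3 in 2 and TNFAIP2 in 1. Adjusted p values without the mouse term were 0.107 to 0.409 for the 6 NF-kB genes and 0.243 to 0.359 for the 4 cytokines, and none of either list passed without mouse 2. Without the lung sample of mouse 2 alone 1 gene passed in each list, and without the liver sample of mouse 3 alone 4 and 2 passed.

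Interferons signal through cell surface receptors to a broad set of antiviral genes. Of 29 tested interferon response genes 9 were higher in lung, none was higher in liver, and 27 had a positive change (median 0.77). They were MX2, IFI6, MX1, IRF9, IFI27, ISG15, OAS1, IRF7 and BST2. IFI6, an interferon-induced mitochondrial protein, was at 86.6, 146 and 191 CPM in lung and 13.7, 8.54 and 47.3 CPM in liver (log2 fold change 2.76, SE 0.38, adjusted p = 0.00117). MX2, an antiviral GTPase, was at 3.47, 27.1 and 41.9 CPM and 0.257, 6.08 and 2.54 CPM (log2 fold change 2.93, SE 0.43, adjusted p = 0.0021), and its relative MX1 was at 19.2, 69.3 and 102 CPM and 0.706, 19.04 and 13.1 CPM (log2 fold change 2.58, SE 0.49, adjusted p = 0.00891). IFI6 was separate between organs, in MX1 the lowest lung and the highest liver sample were nearly equal, and in MX2 the lung sample of mouse 1 lay below the liver sample of mouse 2. IFIT2 and IFIT3, among the most abundant members, did not pass (0.31 and 0.29, adjusted p = 0.59 and 0.579). MHC class I genes, which interferon also raises, had a median of 0.16 with none of 14 passing. Without mouse 2 the 9 interferon calls became 2, without mouse 3 they became 4, without the lung sample of mouse 2 they became 4, with the length and GC offset they became 10, and without the mouse term adjusted p values were 0.0889 to 0.625.

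TGF-beta and BMP ligands act through SMAD proteins, and the ID genes, inhibitors of basic helix-loop-helix factors, are classical BMP targets. Of 20 tested genes 5 were higher in lung and 1 was higher in liver. All 4 ID genes rose: ID1 was at 546, 509 and 561 CPM in lung and 306, 133 and 199 CPM in liver (log2 fold change 1.38, SE 0.27, adjusted p = 0.0104), and ID2, ID3 and ID4 changed by 2.16, 1.25 and 1.83 (adjusted p = 0.0123, 0.0132 and 0.0135). The primary tumours were low in ID1, at 44.6, 41.7 and 41.9 CPM, below every metastasis sample. BMP4, a BMP ligand, rose by 0.72 (SE 0.18, adjusted p = 0.0397). LTBP1, which stores latent TGF-beta in the matrix, was lower in lung (log2 fold change -0.88, SE 0.20, adjusted p = 0.0239), while CCN2 and TGFBR2 did not pass (-0.02 and -0.71). Adjusted p values without the mouse term were 0.132 to 0.310, no member passed without mouse 2, without mouse 3 or without the liver sample of mouse 3, 1 passed without the lung sample of mouse 2. With the length and GC offset ID3 had an adjusted p of 0.0684, while the list had 5 genes higher in lung and 2 higher in liver.

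**Figure D3:**
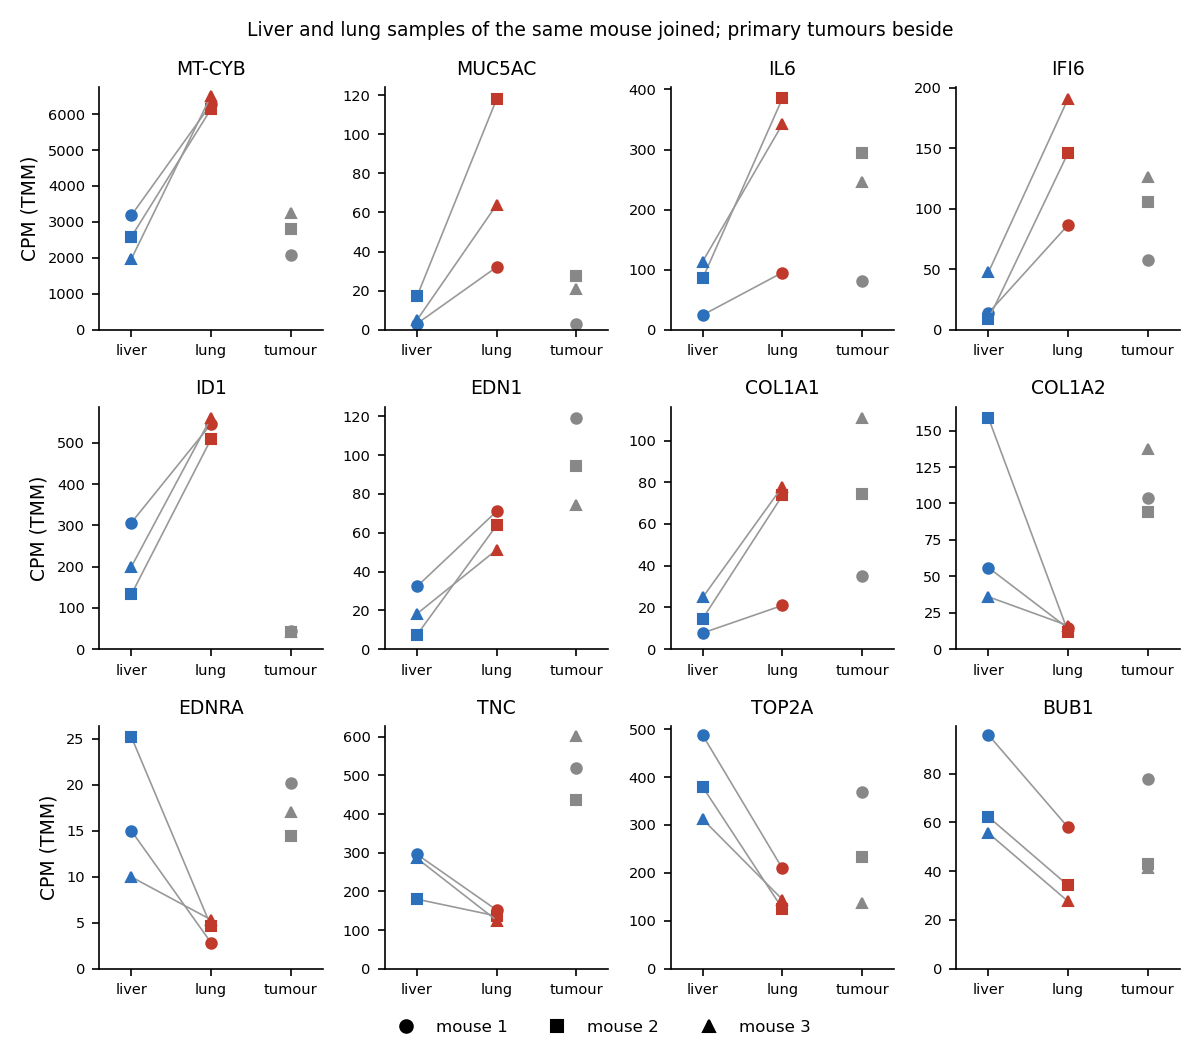
CPM of 12 genes in the liver and lung samples, joined by a line within a mouse, and in the primary tumours, with a symbol per mouse and axes from 0. Every line rises for MT-CYB, MUC5AC, IL6, IFI6, ID1, EDN1 and COL1A1, and every line falls for COL1A2, EDNRA, TNC, TOP2A and BUB1.

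Collagens and matrix glycoproteins form the scaffold around cells. Of 27 tested members 5 were higher in liver and 1 was higher in lung. Besides COL1A2 these were COL6A3 (log2 fold change -1.22, SE 0.26, adjusted p = 0.0181), COL8A1 (log2 fold change -1.15, SE 0.23, adjusted p = 0.0113), LAMC1, the gamma-1 laminin chain of basement membranes (log2 fold change -0.87, SE 0.18, adjusted p = 0.0155), and TNC, tenascin-C (log2 fold change -0.86, SE 0.17, adjusted p = 0.0123). TNC was at 152, 136 and 125 CPM in lung, 296, 179.7 and 285 CPM in liver and 520.2, 438 and 603 CPM in primary tumours, rising in that order in each mouse. COL1A1 (chr17:50183289-50201632), the partner chain of COL1A2 in type I collagen, went the opposite way at 20.96, 73.7 and 77.9 CPM in lung and 7.76, 14.6 and 24.8 CPM in liver (log2 fold change 1.91, SE 0.49, adjusted p = 0.0401). Lung exceeded liver in each mouse for COL1A1 by 1.43, 2.33 and 1.65, and fell short of it for COL1A2, with values of -1.97, -3.73 and -1.15. FN1, fibronectin, was abundant at 846, 1889.7 and 2448 CPM in lung and 1537, 7772 and 1813 CPM in liver, with mouse 3 opposite to mice 1 and 2, and did not pass (adjusted p = 0.165). COL1A1 passed in 2 of the 9 leave-out fits and had an adjusted p of 0.288 in the weakest of them. Of the 6 calls 2 were left without the lung sample of mouse 2, 3 without mouse 3 and 1 without mouse 2. The list is made of long transcripts (median 6494 bases), and with the length and GC offset it again had 1 higher in lung and 5 higher in liver.

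The windows of the 2 most changed collagen and laminin genes with an entry are shown to the same rule. They are COL6A3 at chr2:237414165-237414414 (minus strand) and LAMC1 at chr1:183023170-183023419 (plus strand), and neither held a match to the 3 motifs.
COL6A3: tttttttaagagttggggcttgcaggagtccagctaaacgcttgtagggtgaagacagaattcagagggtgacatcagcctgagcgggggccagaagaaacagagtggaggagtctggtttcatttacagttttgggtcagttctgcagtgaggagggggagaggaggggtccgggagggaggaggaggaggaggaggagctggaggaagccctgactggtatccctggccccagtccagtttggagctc
LAMC1: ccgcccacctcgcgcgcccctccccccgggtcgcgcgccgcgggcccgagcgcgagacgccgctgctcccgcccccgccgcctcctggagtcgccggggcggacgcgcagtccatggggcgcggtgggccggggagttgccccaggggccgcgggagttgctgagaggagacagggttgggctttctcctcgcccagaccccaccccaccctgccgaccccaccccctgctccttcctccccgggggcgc

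Matrix proteases and their inhibitors were split, with 2 of 19 higher in lung and 3 higher in liver. ADAMTS1, a secreted metalloprotease, was at 103, 93.96 and 82.9 CPM in lung and 40.9, 14.6 and 15.7 CPM in liver (log2 fold change 2.004, SE 0.45, adjusted p = 0.0223). PLAU, the urokinase plasminogen activator, was at 791, 278 and 309.5 CPM against 1223, 425 and 1651 CPM (log2 fold change -1.29, SE 0.30, adjusted p = 0.0251), and the membrane protease MMP14 and the inhibitor TIMP2 were lower in lung with changes of -0.78 (SE 0.19, adjusted p = 0.0371) and -0.75 (SE 0.18, adjusted p = 0.032). MMP7 passed on few counts, with 0 in all liver samples and 0.0806, 0.131 and 1.39 CPM in lung, so no fold is given. Among adhesion and epithelial-mesenchymal genes SNAI1, a repressor of E-cadherin, was higher in lung at 7.34, 20.1 and 28.4 CPM against 4.23, 3.85 and 2.11 CPM (log2 fold change 2.33, SE 0.42, adjusted p = 0.00717). CDH1, the gene of E-cadherin, was not lower in lung, with means of 4.17 CPM in lung and 0.768 CPM in liver. All its lung samples lay above all liver samples, and it did not pass (2.66, edgeR adjusted p = 0.269). The integrins ITGA2 and ITGA5, subunits of collagen and fibronectin receptors, were lower in lung (log2 fold change -0.94, SE 0.21, adjusted p = 0.0229; and log2 fold change -1.07, SE 0.29, adjusted p = 0.0499), as was CLMP. VIM, the mesenchymal filament protein, was at 5798, 3320.4 and 4351 CPM in lung and 6042, 3653 and 3249.5 CPM in liver and did not pass (0.05, adjusted p = 0.944). Among 12 contractile actin genes ACTG2, a smooth muscle actin, rose (log2 fold change 2.98, SE 0.67, adjusted p = 0.0226) and MYLK fell. ACTG2 was low, with means of 1.175 CPM in lung and 0.151 CPM in liver, and passed in 4 of the 9 leave-out fits. None of the calls in these 3 lists held without mouse 2. Without the mouse term CLMP alone held. Without the lung sample of mouse 2 the calls in the protease, adhesion and actin lists were 0, 1 and 1, and without the liver sample of mouse 3 they were 0, 2 and 2. With the length and GC offset 6 protease, 5 adhesion and 2 actin genes passed.

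The endothelin ligand and its receptor moved in opposite directions. EDN1, the peptide endothelin-1, was at 71.1, 63.9 and 51.3 CPM in lung and 32.3, 7.39 and 18.2 CPM in liver (log2 fold change 1.82, SE 0.33, adjusted p = 0.00717), while EDNRA fell. The prostaglandin E2 receptors also parted: PTGER4 rose (log2 fold change 0.77, SE 0.20, adjusted p = 0.0416) and PTGER2, at 0.242, 0.298 and 0.246 CPM in lung and 1.41, 1.36 and 1.51 CPM in liver, fell (log2 fold change -2.41, SE 0.55, adjusted p = 0.0239). All 4 had samples that did not overlap. In the 9 leave-out fits EDNRA passed in 8, EDN1 in 6, PTGER2 in 2 and PTGER4 in 1. Of 18 genes of the Hippo pathway and its YAP targets, ANKRD1 (log2 fold change 1.98, SE 0.38, adjusted p = 0.00924), AJUBA (log2 fold change 1.08, SE 0.22, adjusted p = 0.0124) and WWC1 (log2 fold change 2.34, SE 0.39, adjusted p = 0.00442) rose and AMOTL1 fell (log2 fold change -0.90, SE 0.20, adjusted p = 0.0182). CCN1, a standard YAP target, did not pass (0.18, adjusted p = 0.773). Adjusted p values without the mouse term were 0.0402 to 0.283 for the endothelin and prostaglandin genes and 0.0581 to 0.264 for the Hippo genes. No gene of either list passed without mouse 2, and 1 of each passed without mouse 3 or without the lung sample of mouse 2.

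Among genes of mitosis, 5 of 24 tested were lower in lung and none was higher. All 24 had a negative change, with a median of -0.54, and the called genes were TOP2A, TTK, BUB1, TPX2 and CCNA2. TOP2A, the topoisomerase of dividing cells, was at 209, 125 and 144 CPM in lung and 487, 379 and 312 CPM in liver (log2 fold change -1.28, SE 0.23, adjusted p = 0.00666), and the groups were separate. BUB1, a kinase of the spindle checkpoint, was at 57.97, 34.1 and 27.6 CPM and 95.95, 62.3 and 55.6 CPM (log2 fold change -0.87, SE 0.18, adjusted p = 0.0123); lung was below liver in every mouse, while the lung sample of mouse 1 lay above the liver sample of mouse 3. TTK and TPX2 changed by -1.003 and -0.84. MKI67, the proliferation marker, was at 109, 128 and 122 CPM in lung and 150.1, 262 and 135 CPM in liver and did not pass (-0.54, adjusted p = 0.286). Of 20 genes of S phase MCM2 passed (log2 fold change -0.96, SE 0.22, adjusted p = 0.0251), though in only 1 of 9 leave-out fits, and the median was -0.38. Without mouse 2 and without its lung sample no mitosis gene passed, without the liver sample of mouse 3 and without mouse 3 the counts were 1 and 2, with the offset 7 passed (and 4 of S phase), and without the mouse term adjusted p values were 0.322 to 0.730. In bulk RNA fewer cells in division and less RNA per dividing cell cannot be told apart.

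Metabolic genes passed in few cases. None of 26 glycolysis and hypoxia genes passed (median -0.17), nor any of 12 genes of glycogen and glucose storage (median -0.31), 12 heat shock genes or 12 genes of ERK feedback. GAPDH was at 2468, 2077 and 2416 CPM in lung and 3359, 2663 and 1949 CPM in liver. Of 25 genes of cholesterol synthesis and uptake HMGCS1 and DHCR7 rose (log2 fold change 0.96, SE 0.22, adjusted p = 0.0251; and log2 fold change 0.57, SE 0.15, adjusted p = 0.047). ANGPTL4, a secreted inhibitor of lipoprotein lipase, was the single call among 21 lipid genes, at 402, 479 and 573 CPM in lung and 191, 169 and 205 CPM in liver (log2 fold change 1.35, SE 0.23, adjusted p = 0.0046). Of 14 NRF2 targets AKR1C3 fell, and the median was -0.43. KLF2 rose among 19 immediate early genes (1.31), XBP1 among 19 genes of the unfolded protein response (0.81), and CRISPLD2 and FKBP5 among 10 glucocorticoid targets (2.42 and 0.68). With the length and GC offset DHCR7 did not pass (adjusted p = 0.15), and the lipid list had 1 gene higher in lung and 1 higher in liver. In the 9 leave-out fits DHCR7 passed in 0, FKBP5 in 1, HMGCS1 and XBP1 in 2, AKR1C3 in 4, KLF2 and CRISPLD2 in 6 and ANGPTL4 in 7, and no cholesterol gene passed without the lung sample of mouse 2 or 3 or the liver sample of mouse 1 or 3.

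A list of genes tied to lung metastasis of MDA-MB-231 in earlier work gave 3 of 20 higher in lung and 2 higher in liver, with a median of 0.57. LY6E, a GPI-anchored surface protein that interferon induces, was at 161, 325 and 403 CPM in lung and 6.22, 61.6 and 54.6 CPM in liver (log2 fold change 2.95, SE 0.46, adjusted p = 0.00274). With it, ID1 and ANGPTL4 rose, while TNC and LTBP1 were lower in lung. EREG, an EGF receptor ligand, was higher in lung in each mouse by 2.31, 1.07 and 1.20 and missed the threshold (adjusted p = 0.0504). It passed in 9 of 18 alternative fits, among them the one with the length and GC offset (1.53, adjusted p = 0.0111). Of the list 6 genes passed with that offset, 4 of them higher in lung, 2 passed without the lung sample of mouse 2 or the liver sample of mouse 3, and 1 without mouse 2, while LY6E passed in all 9 leave-out fits.

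**Figure D4:**
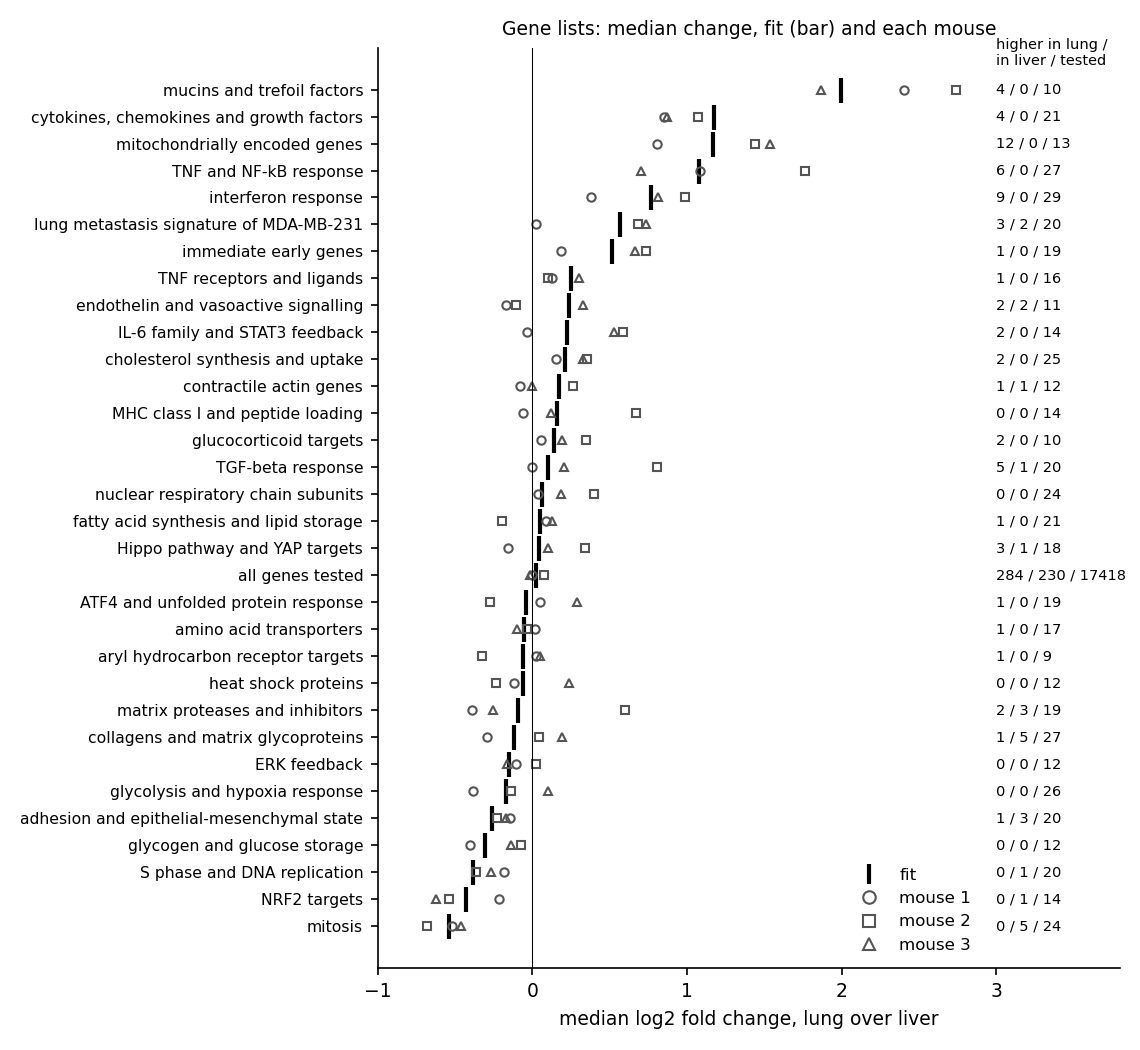
Median log2 fold change of lung over liver for 31 gene lists and all genes tested, with the median of the fit as a bar and that of each mouse as a symbol. Counts at the right give members higher in lung, higher in liver and tested. Mucins lie at 2.00, mitochondrially encoded genes at 1.17 and mitosis at -0.54.

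Primary tumours of subclone 2 stood nearer to the lung value than to the liver value on the log scale for 153 of the 284 genes higher in lung (53.9%) and for 51 of the 230 higher in liver (22.2%), against 44.9% of all genes tested. The tumour mean lay between both organs for 198 and 174 genes. It was above both for 46 and 51, and below both for 40 and 5. These shares carry no test, because the genes were chosen by their lung and liver values.

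Subclone 13 of the same mice was fitted in the same model. There 48 genes passed (0.276%), 33 higher in lung (0.189%) and 15 in liver (0.0861%), of which 34 were shared with subclone 2, 27 higher in lung and 7 higher in liver, and none in the opposite direction. MUC5AC (2.54), TNFRSF1B (2.96), CYP1B1 (5.71), COL1A2 (-1.89) and TNC (-1.03) were among them. Of the 13 mitochondrial genes 10 passed in subclone 13. There CLMP, EDNRA and SLC43A2 had values of -0.24, -0.21 and 0.59, none passing. The test of the difference between the subclones found no gene (0% of 17418, smallest adjusted p = 0.451) with edgeR. An unadjusted p under 0.05 in that test was found for 783 of the 17418 genes, a share below the 0.05 that this cutoff lets through when no gene differs. With DESeq2 21 genes passed after adjustment. Both subclones came from the same mice, and their runs were the same in mice 2 and 3; in mouse 1 subclone 13 was sequenced in runs 1, 2 and 3 and subclone 2 in run 1.

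The retransplantation samples of subclone 2 came from mice 4, 5 and 6, and lung and liver were again compared within mice. From the labels it is not known if the organ is where the cells had come from or where they grew afterwards. There 84 of 17549 genes passed (0.479%), 69 higher in lung (0.393%) and 15 higher in liver (0.0855%), and without mouse in the model none passed in edgeR (2198 at an unadjusted p under 0.05). Of the 514 genes 18 passed in both experiments, which is 3.50% of the first set and 21.4% of the second, and 17 of them in the same direction. Of the 276 genes higher in lung that were tested there, 217 (78.6%) had the same sign with a median of 0.40. Of the 230 higher in liver, 134 (58.3%) had the same sign with a median of -0.04. Among all 16588 genes tested in both experiments 8977 (54.1%) had the same sign.

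Genes that passed in both included IL6, at 167, 319 and 202 CPM in lung and 81.2, 91.1 and 47.1 CPM in liver of mice 4, 5 and 6 (1.65, adjusted p = 0.0372), ID2, ID3, BMP4, ADAMTS1, PTGER4 and, higher in liver, AKR1C3 (-1.28, adjusted p = 0.0259). KRT81, a hair-type keratin, was at 60.96, 66.6 and 54.7 CPM in lung and 21.4, 13.2 and 8.48 CPM in liver there, and at 117, 282 and 266 CPM and 13.9, 65.6 and 59.7 CPM in the first experiment (log2 fold change 2.28, SE 0.42, adjusted p = 0.00769). BTG2, an antiproliferative gene, passed in both, but in mouse 1 it was lower in lung, with values of -0.47, 4.01 and 4.05 in mice 1, 2 and 3. COL1A2 passed in both with opposite signs: in retransplanted cells it was at 19.1, 15.96 and 32.3 CPM in lung and 6.58, 1.28 and 2.68 CPM in liver (2.90, adjusted p = 0.0475).

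The median of the NF-kB list was 1.07 in the retransplantation samples with 5 of 27 genes higher in lung, close to its 1.08 in the first experiment. The mucin list had a median of 1.20 with none of 8 passing, the mitochondrial list 0.55 with none of 13 passing, and the interferon list 0.23 with none of 29 passing. The mitosis list had a median of 0.20 with none of 24 passing, of opposite sign to its -0.54 in the first experiment. The difference between the experiments was not tested. The rank correlation between transcript length and the change was -0.04 in the retransplantation samples.

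**Figure D5:**
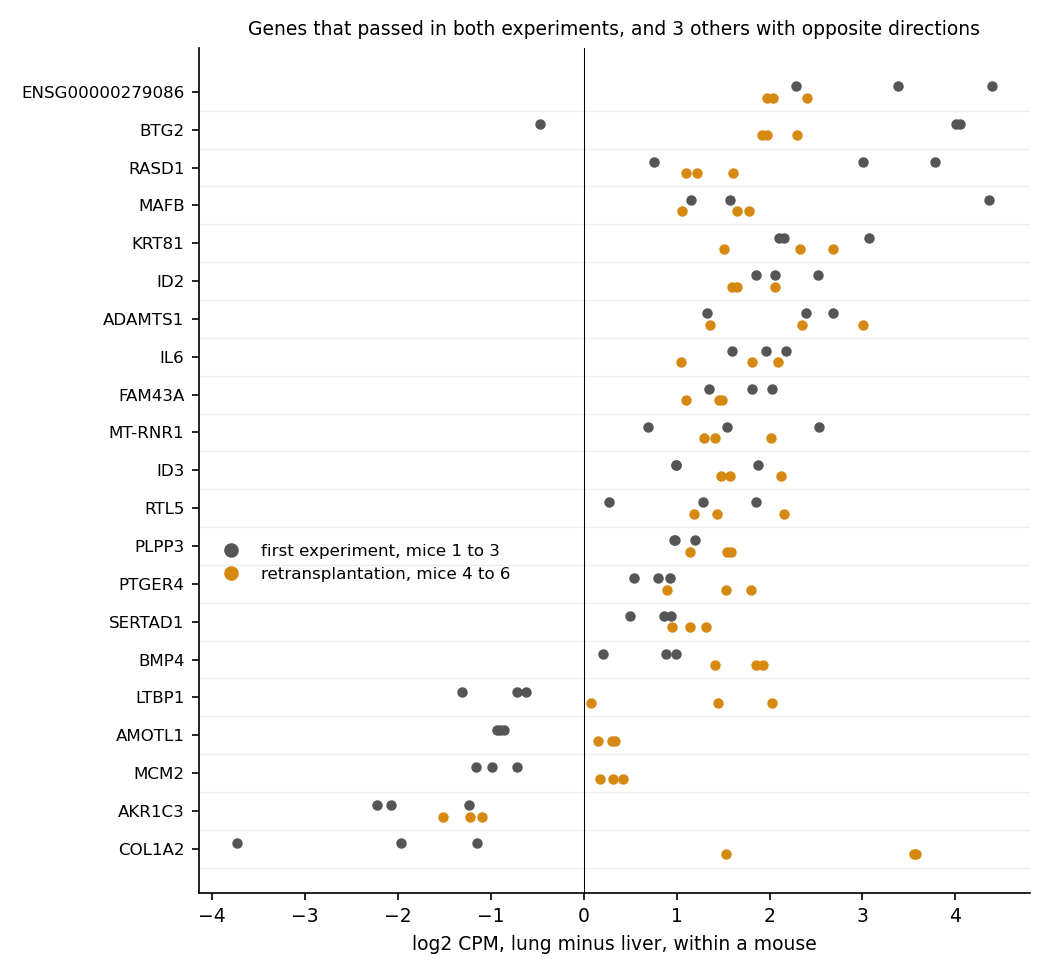
Log2 CPM of lung minus liver within each mouse, grey for mice 1 to 3 and orange for mice 4 to 6, for the 18 genes that passed in both experiments and for LTBP1, AMOTL1 and MCM2. The orange points of COL1A2, LTBP1, AMOTL1 and MCM2 lie on the other side of 0 from the grey ones.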

How the data were processed

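The values were read counts per gene as deposited by the authors, 1 column per library, in a table of 38526 genes for the first experiment and 36291 for the retransplantation. Libraries were made with Illumina TruSeq RNA Library Prep Kit v2, which does not keep strand, per the labels' protocols. Reads had been handled with STAR, featureCounts, cutadapt and bcl2fastq 2.15.0.4 on GRCh38, per the submitters' processing notes. Positions are from GENCODE v29 (GRCh38), and the gene annotation used for counting is not given in the sources used here. The 3 libraries per organ of subclone 13 in mouse 1 were summed.

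Genes were filtered with filterByExpr, scaled by TMM and fitted in edgeR 4.0.16 (R 4.3.3) over all 18 samples of the first experiment, with group and mouse number as terms. SE is the log2 fold change over the square root of F. CPM values use TMM library sizes, apart from marker genes, which use total counts. The samples were paired by mouse number, per the labels. Deviations from group means correlated at 0.523, 0.321 and 0.212 between lung and liver of mice 1, 2 and 3. Between different mice the values were -0.402 to 0.232, with 0.232 and 0.209 between mice 2 and 3, so the value within mouse 3 lay between those. The biological coefficient of variation was 0.330 with the mouse term and 0.476 without. Samples of a group came from separate mice, per the labels. DESeq2 1.42.0 was an alternative. Length and GC content were those of the longest GENCODE transcript.

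Named genes were the 12 largest changes each way among called genes with a symbol, a mean of 5 CPM in the higher organ and the same direction in all 3 mice. To these came, with no minimum level, up to 4 called members each way and up to 2 abundant uncalled members of each list, and any gene called without the mouse term. The genes called in both experiments were added after their values were seen. The samples compared, the rules and the 31 lists were chosen with earlier results of these data known. The scripts were tested on simulated data.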

Additional observations from a re-analysis of the deposited data

Results flagged for a closer look

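In 4 of 92 genes that passed in the first experiment and were named or passed in both, all 3 mice moved in one direction there and all 3 retransplantation mice moved the opposite way; the difference between the experiments was not tested. COL1A2 was -1.97, -3.73 and -1.15 on the log2 scale (lung minus liver) in mice 1, 2 and 3, and 1.53, 3.57 and 3.56 in mice 4, 5 and 6, where the fitted change was 2.90. LTBP1 was -0.72, -0.63 and -1.31 and then 0.08, 2.03 and 1.45, with a fitted change of 1.19 (adjusted p = 0.176). AMOTL1 was -0.91, -0.94 and -0.86 and then 0.30, 0.15 and 0.34, with a fitted change of 0.26 (adjusted p = 0.42). MCM2 was -0.98, -1.16 and -0.72 and then 0.31, 0.42 and 0.17, with a fitted change of 0.30 (adjusted p = 0.364). The adjusted p values are from edgeR's quasi-likelihood test with mouse in the model. Of the 4, COL1A2 alone passed in both experiments. Over all called genes tested in both experiments, such opposite movement in all mice was found for 17 of 276 higher in lung and 19 of 230 higher in liver, and for 1027 of all 16588 genes.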

How the results depend on the processing

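For lung against liver in subclone 2, the 514 genes called became 4 without the replicate block, 1364 with DESeq2 and the block, 966 with no filter on low counts, 261 with only the 9 subclone 2 samples, and 259 with only the 6 compared samples. With those 6 and no replicate block 0 passed in edgeR, where 967 had an unadjusted p under 0.05. The counts were 519 with RLE size factors and 569 with 1 library per organ for subclone 13 of mouse 1. Leaving out 1 sample or 1 mouse gave 27 to 542. The difference between the subclones, 0 genes, became 21 with DESeq2 and 67 with no filter, and 0 to 2 when a mouse was left out. In the retransplantation samples 84 genes became 0 without the replicate block (2198 at an unadjusted p under 0.05), 668 with DESeq2 and 1523 with no filter, and 105 to 149 when a mouse was left out. Of the 82 called named genes 4 passed without the replicate block, 79 with RLE size factors, 79 with no filter, 10 without mouse 2 and 24 without mouse 3. No called named gene changed sign in any of these fits. They reuse the same samples, and the genes of largest change were chosen for the same direction in all 3 mice, so this was largely set in advance. The cause of these shifts was not tested. The lung samples of mice 1 and 3 had 13.2 and 11.8 times 1000000 counts, and the part of depth was not tested either.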

Other observations

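Keratins as a family were chosen after their values were seen. Of 16 tested members 3 were higher in lung (KRT16, KRT17 and KRT81), none was higher in liver and 12 had a positive change, with a median of 0.64. The abundant simple-epithelial keratins did not pass: KRT18 was at a mean of 458 CPM in lung and 303 CPM in liver (edgeR adjusted p = 0.0649), KRT8 at 1149 and 788 CPM (adjusted p = 0.140), KRT7 at 1013 and 696 CPM (adjusted p = 0.140) and KRT19 at 1399 and 1680 CPM (adjusted p = 0.514). Both KRT81 and KRT86, which are close copies, had all lung samples above all liver samples, and KRT86 did not pass (adjusted p = 0.210).

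Of 6 tested metallothionein genes, which bind zinc and copper, all 6 had a positive change and 1 passed, with a median of 0.80. Of 35 kinesin genes, motors of the spindle and of transport, 2 were lower in lung and none was higher, with a median of -0.24. Of 26 integrins 2 were lower in lung, and 13 had a positive change. For scale, 1.63% of all genes tested passed as higher in lung and 1.32% as higher in liver. These families as such are not among the gene lists, and none was tested as a set. Their counts are a description only.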
